A study of Mus musculus with 12 samples.

Results

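The class I antigen presentation pathway was followed through 10 genes picked by name: the heavy chains H2-K1 and H2-D1, their light chain B2m, the peptide transporter subunits Tap1 and Tap2, the loading chaperone Tapbp, the immunoproteasome catalytic subunits Psmb8, Psmb9 and Psmb10, and the transcriptional regulator Nlrc5. They are 10 of the 29737 genes in the count table, and all 10 were among the 16761 genes that had enough counts to be tested. The cells were Ly6G+ neutrophils purified from the bone marrow of wild-type female C57BL/6 mice aged 4 to 6 weeks and kept in medium with serum for 24 h. Bile acids were added to 3 of the 4 groups: taurocholic acid (TCA, 200 µM), glycocholic acid (GCA, 200 µM) and tauro-β-muricholic acid (Tβ-MCA, labelled 10 µM, while the methods text names another dose for this compound). PBS was the control, and each group had 3 RNA-seq samples. No label says whether the samples of a group came from separate animals, so the p-values measure only the spread between these samples.

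In class I presentation, cytosolic proteins are cut by the proteasome, and under interferon-γ 3 catalytic subunits of the constitutive proteasome (Psmb6, Psmb5 and Psmb7) are replaced by Psmb9, Psmb8 and Psmb10. The peptides are pumped into the endoplasmic reticulum by the Tap1-Tap2 transporter, and tapasin, the product of Tapbp, holds the transporter next to empty heavy chain and B2m pairs until a peptide binds. Loaded complexes then travel to the cell surface, where CD8+ T cells read them. Nlrc5 is the main transactivator of class I genes and acts at their promoters together with RFX, CREB and NF-Y factors, beside interferon-response and κB elements.

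In the deposited table (GRCm38), 7 of the 10 genes lie on chromosome 17, in the major histocompatibility complex. Psmb9, Tap1, Psmb8 and Tap2 are neighbours within 34.3 kb (chr17:34181988-34216321). Psmb9 lies on the minus strand and Tap1 on the plus strand, and their starts overlap so that 212 exonic bases belong to both genes. H2-K1 (chr17:33996017-34000333, minus strand) and Tapbp (chr17:33915899-33929288, plus strand) lie on one side of that cluster, and H2-D1 (chr17:35262730-35267499, plus strand) on the other. B2m is at chr2:122147686-122153083 on the plus strand. Psmb10 (chr8:105935735-105938444, minus strand) and Nlrc5 (chr8:94434356-94527272, plus strand) are on chromosome 8. Tapbp shared 665 exonic bases, 20.2% of its exon length, with the opposite-strand gene Gm19412, and Tap2 shared 533 bases with Gm15821. H2-K1, H2-D1 and the other heavy chain genes have near-identical copies, so their counts depend on how reads with several matches were assigned, and the strand setting of the counting is not given in the sources used here.

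RefSeq windows of 300 bases (GRCm38.p6, 250 before to 50 after the start of a gene) were matched by symbol for 8 of the 10 genes, all but Tap2 and Nlrc5. A spaced repeat of the interferon-response type, GAAANNGAA or GAANNGAAA (patterns that can overlap each other) on either strand, was in the windows of H2-K1, H2-D1 and B2m, 3 of the 8, against 14.8% of all 32851 windows. The κB-type motif GGGATTCC was in those of H2-K1 and H2-D1, 2 of the 8, against 1.06% of all windows. Both motifs together were in 0.174% of the windows. Of 13 other heavy chain and class I-like genes with a window, 9 held the repeat and 2 the κB-type motif, H2-Q6 and H2-Q7. H2-Q6, whose run is not shown, also held both motifs and was not among the genes called higher in Tβ-MCA. TGACG was in 5 of the 8 against 20.8%, and CCAAT in 6 of the 8 against 37.4%. The runs below are shown because they place both motifs side by side in the 2 classical heavy chain genes and in H2-Q7, a nonclassical heavy chain gene that is described with the other class I genes, and because B2m holds the repeat without the κB-type motif. Each run has 30 bases, read on the strand of the gene, and capitals mark the motifs.
H2-K1 (chr17:34000429-34000458, minus strand): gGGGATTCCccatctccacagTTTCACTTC
H2-D1 (chr17:35262923-35262952, plus strand): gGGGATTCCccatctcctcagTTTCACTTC
H2-Q7 (chr17:35439022-35439051, plus strand): gGGGATTCCcatctccccagTTTCACTTCt
B2m (chr2:122147538-122147567, plus strand): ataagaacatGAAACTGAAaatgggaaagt
The H2-K1 and H2-D1 runs shared 29 of 30 bases and differed by A18T, counted from 1 at the 5′ end with H2-K1 as the reference. The runs of H2-K1, H2-Q7 and B2m lie upstream of the genes in the deposited table, while that of H2-D1 lies inside an exon annotated there for that gene. A motif match describes these letters and is not a measured binding site.

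The libraries held 32757389 to 41375925 counts, at which 3 counts correspond to 0.0725 to 0.0916 CPM. A gene's CPM is its count as a share of the library total, here with the total scaled by the trimmed mean of M values (TMM). Neutrophil genes were abundant in the PBS samples (S100a8 at 1543 to 1764 CPM), although Ly6g itself was at 17.8 to 21.4 CPM. Of the defining markers of other cells, Cd3e was at most 0.294 CPM in PBS, Hbb-bs at most 0.916, Mcpt8 at most 3.15 and Siglecf at most 4.65, whereas Flt3 was at 20.9 to 27.7, Ccr2 at 37.3 to 51.2 and Csf1r at 215 to 271 CPM. Tβ-MCA replicate 5 stood apart from replicates 3 and 4, with a smaller difference from PBS for many genes, so the Tβ-MCA counts of the members and of each pathway list are also given without it. Because that sample was chosen for its smaller difference, more calls without it can follow from the choice and are no added evidence.

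Per length, the class I molecule itself was far more abundant than its loading machinery. In PBS samples the deposited RPKM, reads scaled to gene length and library depth, were 658 ± 3.18 for H2-D1, 493 ± 36.5 for H2-K1 and 230 ± 8.54 for B2m (SD, n = 3 each). Tapbp followed at 28.6 ± 1.13 RPKM, Tap2 at 24.1 ± 0.321, Psmb8 at 21.2 ± 1.36 and Tap1 at 9.78 ± 0.812. The lowest were Psmb10 at 7.22 ± 0.195 RPKM, Psmb9 at 6.92 ± 0.678 and Nlrc5 at 4.75 ± 0.427. In this order only Psmb10 and Psmb9 had PBS ranges that overlapped with those of their next neighbour.

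**Figure D1:**
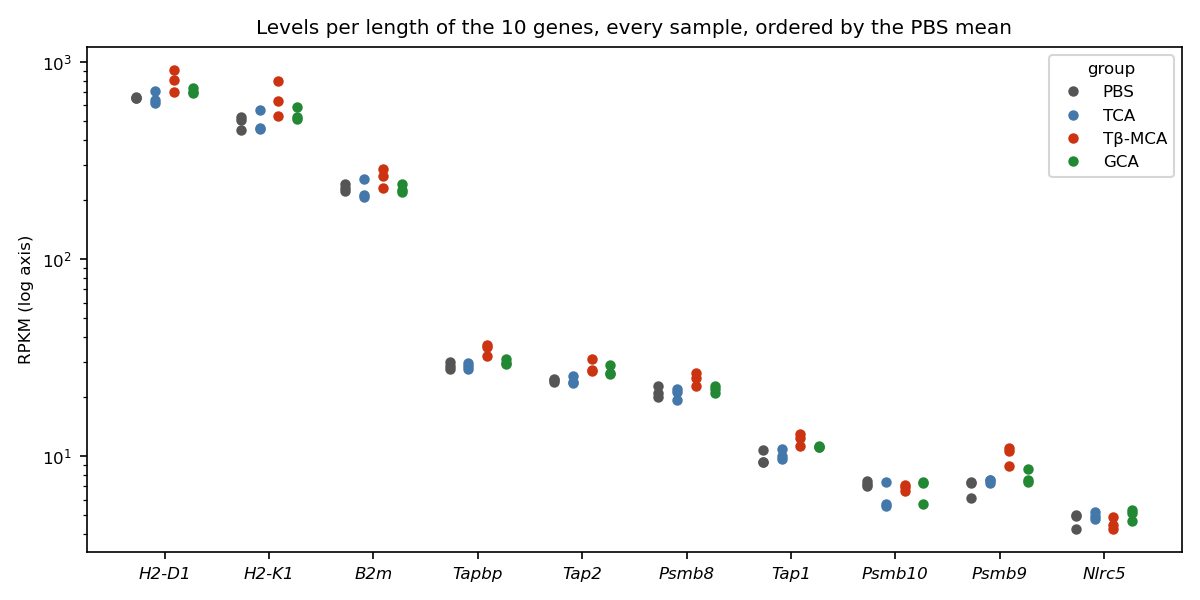
RPKM of the 10 genes (log axis) in every sample, with 3 points per group and genes ordered by their PBS mean. H2-D1, H2-K1 and B2m lie at 206 RPKM or more in every sample, and the other 7 genes at 36.4 or less.

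In Tβ-MCA against PBS, 3 members passed the test. Psmb9, Tapbp and Tap1 rose by 41.8%, 17.3% and 19.9%, and no member fell. These are 3 of 10 genes called higher and 0 called lower at an adjusted p under 0.05 (edgeR), where 4.44% of all tested genes were called higher and 3.18% lower. Of the 10 log2 fold changes, 8 were above 0, with a median of 0.21 against 0.0041 over all tested genes. At the cutoffs named in the methods, an unadjusted p under 0.05 and at least 2-fold, no member passed, against 2.95% of all genes.

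The immunoproteasome subunit Psmb9, which takes the place of Psmb6, had the largest difference of the 10. In PBS it was at 22.996, 27.2 and 26.6 CPM (replicates 3, 5 and 6). Under Tβ-MCA it was at 39.4, 37.6 and 31.97 CPM (replicates 3, 4 and 5). Every Tβ-MCA sample was above every PBS sample, and the log2 fold change was 0.50 ± 0.092 (SE), with an adjusted p of 0.0206. In TCA the level was 28.5, 26.6 and 27.5 CPM, and in GCA 27.5, 30.7 and 28.0 CPM, so that no sample of either group reached the lowest Tβ-MCA sample.

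Tapasin and the transporter subunits came next. Tapbp was at 96.5, 91.6 and 98.4 CPM in PBS and at 115.9, 116.3 and 103.9 CPM in Tβ-MCA, without overlap (log2 fold change 0.23 ± 0.063, adjusted p = 0.0395). Tap1, the transporter subunit next to Psmb9 on the chromosome, was at 52.0, 51.7 and 58.8 CPM in PBS and at 68.9, 65.1 and 60.9 CPM in Tβ-MCA, again without overlap (0.26 ± 0.076, adjusted p = 0.0473). Tap2, its partner, was at 93.5, 93.2 and 90.2 CPM in PBS and at 115.5, 99.9 and 100.9 CPM in Tβ-MCA. The Tap2 groups did not overlap either, but its adjusted p of 0.1001 (log2 fold change 0.19 ± 0.070) did not pass.

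The heavy chains had similar fold changes and wider spread. H2-K1 was at 1393, 1190 and 1323 CPM in PBS and at 2041, 1590 and 1360 CPM in Tβ-MCA, where replicate 5 fell within the PBS range (log2 fold change 0.35 ± 0.13, adjusted p = 0.120). H2-D1 was at 1747, 1706 and 1697 CPM in PBS and at 2295, 2019 and 1794 CPM in Tβ-MCA, all above PBS (0.25 ± 0.084, adjusted p = 0.0839). B2m, the light chain shared by all class I molecules, was at 194.9 to 206.8 CPM in PBS and at 222.3, 237.6 and 194.0 CPM in Tβ-MCA (0.13 ± 0.083, adjusted p = 0.370). For B2m the 95% interval of the log2 fold change ran from -0.065 to 0.32, which includes the H2-D1 estimate.

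The other immunoproteasome subunits and the transactivator did not pass. Psmb8, which takes the place of Psmb5, was at 55.2 to 63.5 CPM in PBS and 61.1 to 69.8 CPM in Tβ-MCA (log2 fold change 0.17 ± 0.076, adjusted p = 0.175). Psmb10, which takes the place of Psmb7, was at 12.02 to 12.96 CPM in PBS and 11.03 to 11.77 CPM in Tβ-MCA, so that all Tβ-MCA samples lay below PBS, though by less than the test could tell apart (-0.11 ± 0.12, adjusted p = 0.605). Nlrc5 was at 37.0 to 42.7 CPM in PBS and 34.9 to 40.8 CPM in Tβ-MCA (-0.12 ± 0.085, adjusted p = 0.419). Over the 10 genes, 5 had all Tβ-MCA samples above PBS and 1 had all below, where 14.1% and 12.8% of all tested genes did so.

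**Figure D2:**
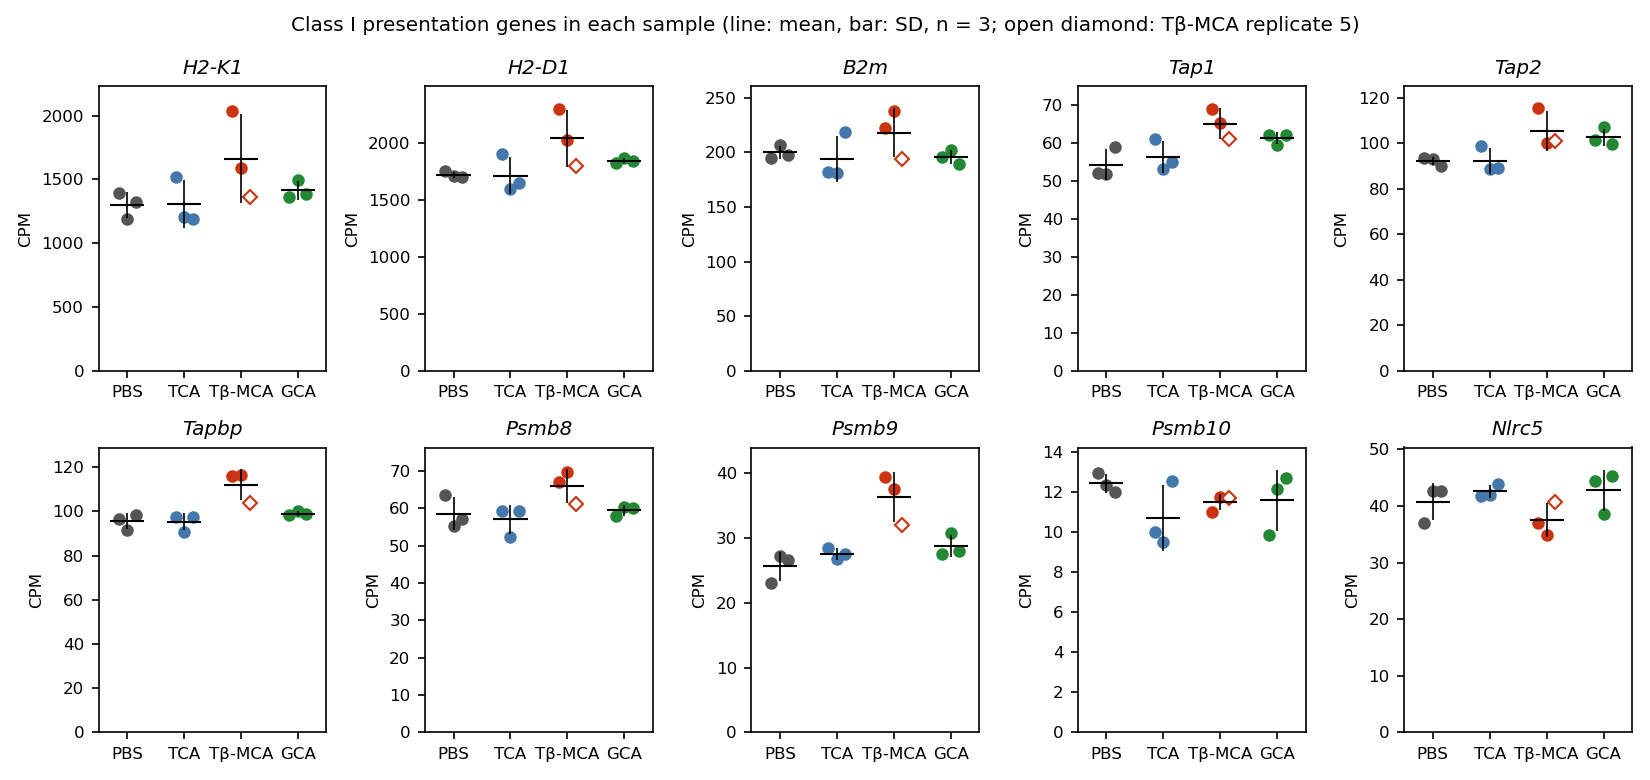
CPM (TMM-scaled, linear axis from 0) of the 10 genes in each sample, with the group mean as a line, the SD as a bar (n = 3) and Tβ-MCA replicate 5 as an open diamond. In Psmb9 the Tβ-MCA samples lie at 31.97 to 39.4 CPM, above all 9 other samples, while the Psmb10 and Nlrc5 samples of the 4 groups lie between 9.52 and 12.96 and between 34.9 and 45.3 CPM.

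Without Tβ-MCA replicate 5, 5 of the 10 genes were called higher and 0 lower, where 8.52% of 17131 tested genes were called higher and 9.44% lower. Those 5 were Psmb9 (log2 fold change 0.59 ± 0.091, adjusted p = 0.000434), Tapbp (adjusted p = 0.00624), H2-D1 (0.33, adjusted p = 0.00936), H2-K1 (0.48, adjusted p = 0.0130) and Tap1 (adjusted p = 0.0152). Of the other 5, Tap2 was at 0.22 (adjusted p = 0.0547), Psmb8 at 0.22 (adjusted p = 0.0657), B2m at 0.20 (adjusted p = 0.0973), Nlrc5 at -0.18 (adjusted p = 0.184) and Psmb10 at -0.13 (adjusted p = 0.581). The median over the 10 genes was then 0.25. The counts depended on single libraries: without PBS replicate 3, PBS replicate 5, Tβ-MCA replicate 3 or Tβ-MCA replicate 4, no gene of the whole table passed edgeR's adjusted threshold, while 7, 5, 3 and 6 of the 10 members had an unadjusted p under 0.05, beside 21.0%, 20.3%, 17.6% and 16.8% of all genes tested. Without PBS replicate 6, 1 member was called higher, beside 0.607% of all genes tested. Over 12 alternative fits, the direction of each of the 10 genes was the same, and Psmb9, Tap1 and Tapbp were called in 7, 6 and 5 of them.

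Levels of other cells' genes moved with the same samples. The summed level of 15 monocyte and macrophage markers was 1212 to 1261 CPM in PBS. Under Tβ-MCA it was 363 (replicate 3), 421 (replicate 4) and 929 CPM (replicate 5), and all 15 log2 fold changes were below 0 (median -0.92). Of the 15, 1 (Siglec1) was called lower, and 10 were without replicate 5. Of all tested genes 3.18% were called lower, and 9.44% without replicate 5. Ccr2, a defining monocyte marker, was at 2.03, 2.70 and 29.2 CPM in Tβ-MCA. The 13 neutrophil markers summed to 48138 to 59559 CPM in PBS and to 38422 to 43873 CPM in Tβ-MCA. There 4 of 13 (Ly6g, S100a8, Mmp9 and Camp) were called lower, and 10 of 13 without replicate 5, beside the same 3.18% and 9.44%. Fewer cells of a type and less RNA per cell cannot be told apart in bulk samples. The summed levels of the other lists in PBS against Tβ-MCA were 25.9 to 32.9 against 15.7 to 24.7 CPM for 7 dendritic cell genes, 11.1 to 18.4 against 8.47 to 10.9 for 8 B cell genes, 2.64 to 3.76 against 1.73 to 2.35 for 8 T and NK cell genes, 137.5 to 240.7 against 54.1 to 123.6 for 5 eosinophil genes, 24.6 to 48.5 against 21.6 to 36.7 for 5 basophil and mast cell genes, and 1.52 to 2.45 against 1.61 to 2.16 for 7 erythroid genes. Among these, Batf3, Cd79a and Siglecf were called lower, 1 in each of the dendritic cell, B cell and eosinophil lists. None of the defining markers named here was at 0 in any sample. The part of these shifts in the class I values was not tested.

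With TCA no member was called. The log2 fold changes ran from -0.22 (Psmb10) to 0.10 (Psmb9), with a median of -0.0026. By edgeR 0 of the 10 were called and 0 had an unadjusted p under 0.05. Of all tested genes 0% were called in either direction, 546 had an unadjusted p under 0.05, and DESeq2 called 1 gene and limma 0. No member had TCA and PBS samples apart, where 4.91% of all genes were higher and 4.76% lower without overlap. Psmb10 was at 10.0, 9.52 and 12.6 CPM in TCA (unadjusted p = 0.0892), and the 95% interval of its log2 fold change ran from -0.50 to 0.059. For H2-K1 the interval was -0.30 to 0.31 and for Tap2 -0.16 to 0.16, so that changes well within these bounds could not be told from 0 with 3 samples per group.

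GCA against PBS gave 0 of 10 calls by edgeR, DESeq2 and limma alike, beside 0% of all genes by edgeR. An unadjusted p under 0.05 was found for 2 members, Tap1 and Tap2, and for 591 of all tested genes. The log2 fold change of Tap1 was 0.17 ± 0.076 (SE) and that of Tap2 0.15 ± 0.070, both with an adjusted p of 0.9987 by edgeR. Tap1 was at 62.1, 59.3 and 62.1 CPM in GCA, and Tap2 at 101.2, 106.9 and 99.6 CPM. In 4 of the 10 genes (H2-D1, Tap1, Tap2 and Psmb9) every GCA sample was above every PBS sample and in 0 every one was below, where 4.71% of all genes were higher and 4.83% lower without overlap. The median log2 fold change of the 10 was 0.086. H2-K1 was at 1362, 1499 and 1386 CPM and H2-D1 at 1824, 1868 and 1836 CPM in GCA. The 3 comparisons with PBS share the same control samples, so their values are not independent.

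GCA and TCA are the glycine and the taurine conjugate of the same bile acid, cholic acid, and were given at the same dose for the same time. Between them 0 of the 10 genes differed at an adjusted p under 0.05 by edgeR, DESeq2 or limma, and 0% of all genes did by edgeR (412 with an unadjusted p under 0.05). All 10 log2 fold changes, GCA over TCA, were above 0, from 0.0089 for Nlrc5 to 0.15 for Tap2, with a median of 0.084. Tap2 was at 98.8, 88.6 and 89.3 CPM in TCA against 99.6 to 106.9 CPM in GCA (unadjusted p = 0.0426, adjusted p = 0.9998), and its 95% interval ran from -0.0066 to 0.31. Tap2 and Tapbp were the 2 members whose GCA samples all lay above TCA, where 3.82% of all genes did. The widest interval, that of H2-K1, ran from -0.19 to 0.42. The labelled dose of Tβ-MCA differs from those of TCA and GCA, so it was not tested against them.

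**Figure D3:**
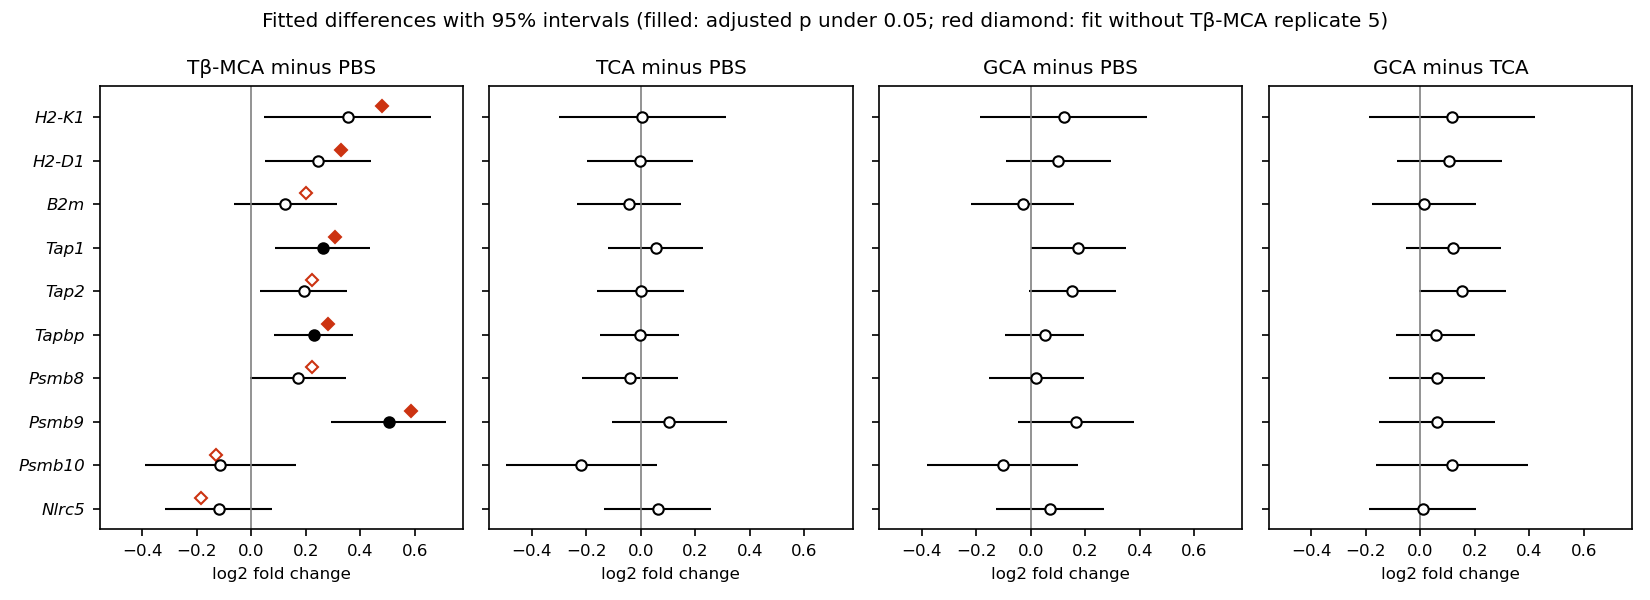
Fitted log2 fold changes (circles) with 95% intervals for the 10 genes in 4 comparisons, filled where the adjusted p was under 0.05, and the estimate without Tβ-MCA replicate 5 as red diamonds above the circles in the first panel. The filled circles are Psmb9, Tap1 and Tapbp in Tβ-MCA minus PBS, and 5 diamonds are filled.

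The proteasome subunits were compared as the RPKM ratio of each immunoproteasome subunit to the constitutive subunit it replaces. This ratio does not depend on how libraries are scaled. It compares RNA levels, and exchange of the subunits in the protein complex was not measured. The Psmb9/Psmb6 ratio was 0.431, 0.406 and 0.396 in PBS and 0.755, 0.638 and 0.505 in Tβ-MCA. It was 0.531, 0.441 and 0.457 in TCA and 0.5003, 0.4879 and 0.4449 in GCA, so that each bile acid group lay wholly above PBS. Each of these 3 comparisons had an exact two-sided permutation p of 0.1, the smallest that 3 against 3 samples allow, and an adjusted p of 0.3 over 12 comparisons. The log2 difference from PBS was 0.60 for Tβ-MCA, 0.21 for TCA and 0.22 for GCA, and between GCA and TCA it was 0.0065 (exact permutation p = 0.9). Without Tβ-MCA replicate 5 the log2 difference of Tβ-MCA from PBS was 0.76 for Psmb9/Psmb6, 0.46 for Psmb8/Psmb5 and -0.044 for Psmb10/Psmb7, with no test.

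The Psmb8/Psmb5 ratio was 0.860 ± 0.141 in PBS and 1.09 ± 0.161 in Tβ-MCA (SD, n = 3; exact permutation p = 0.2), with overlapping samples. Psmb10/Psmb7 was 0.544 ± 0.0668 in PBS, 0.512 ± 0.0514 in Tβ-MCA (exact permutation p = 0.5), 0.461 ± 0.0471 in TCA (exact permutation p = 0.1, adjusted p = 0.3) and 0.511 ± 0.0273 in GCA (exact permutation p = 0.7). In Tβ-MCA the constitutive subunits Psmb5, Psmb6 and Psmb7 had a median log2 fold change of -0.10, and 0 of 3 were called by edgeR, DESeq2 or limma, also without replicate 5, with 0 at an unadjusted p under 0.05. Psmb5 had the lowest p of the 3 (-0.17 ± 0.11, adjusted p = 0.356). Psmb6 was at 27.3 to 34.3 CPM in PBS and 26.7 to 32.4 CPM in Tβ-MCA.

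**Figure D4:**
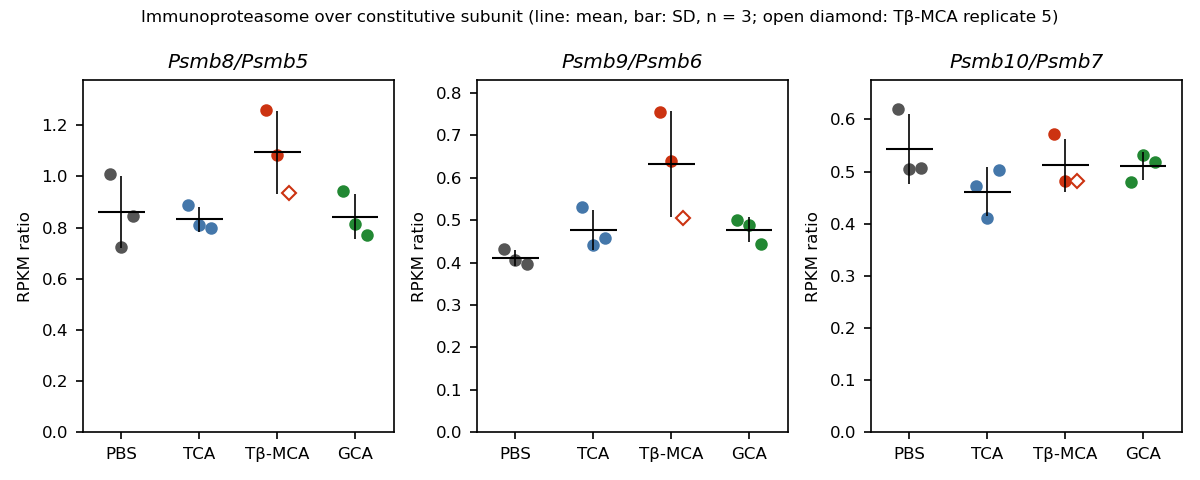
RPKM ratio of each immunoproteasome subunit to its constitutive counterpart in each sample (axes from 0), with mean lines, SD bars (n = 3) and Tβ-MCA replicate 5 as an open diamond. Psmb9/Psmb6 is at 0.396 to 0.431 in PBS and at 0.505 to 0.755 in Tβ-MCA.

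With all samples no other core proteasome gene was called. Of 11 other 20S core subunits 0 were called in Tβ-MCA by edgeR, DESeq2 or limma (median log2 fold change -0.038). Of the 11, 1 had an unadjusted p under 0.05 by edgeR, beside 24.9% of all tested genes. Without replicate 5, 1 was called higher, Psma5 (0.28, adjusted p = 0.0381), and 1 lower, Psma6 (-0.28, adjusted p = 0.0259). With all samples Psma6 had the lowest p (-0.22 ± 0.076, adjusted p = 0.0823). Of 9 activator and assembly genes 0 were called higher and 1 lower, with a median of -0.036 (also 0 and 1 without replicate 5). That gene was Psme1, an interferon-inducible subunit of the PA28 activator, at 229.5 to 246.1 CPM in PBS and 199.6 to 218.5 CPM in Tβ-MCA (-0.22 ± 0.060, adjusted p = 0.0411). With the replicate number as a block Psme1 was not called (adjusted p = 0.0575). DESeq2 called 1 of these 9 genes and limma 0. Among 9 genes of peptide loading and trimming 0 rose and 1 fell (median -0.11), beside 4.44% and 3.18% of all tested genes. DESeq2 called 4 of the 9 and limma 0, where of all genes they called 1999 of 16761 and 861 of 13951. Without replicate 5, 4 of 9 were called lower, beside 9.44% of all tested genes. The largest falls were those of Calr (-0.75, adjusted p = 0.000565) and Pdia3 (-0.52, adjusted p = 0.00134). The others were Lnpep (-0.44, adjusted p = 0.000622) and Hspa5 (-0.26, adjusted p = 0.0210). With the replicate number as a block 1 gene was called lower, Pdia3 (-0.35, adjusted p = 0.0247). Lnpep was then not called (adjusted p = 0.0599). The gene that fell with all samples and no block was Lnpep, an aminopeptidase of endosomal compartments used in cross-presentation. It was at 148.4 to 154.5 CPM in PBS and at 114.2, 108.9 and 140.4 CPM in Tβ-MCA (-0.32 ± 0.084, adjusted p = 0.0351).

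Other class I heavy chains and class I-like molecules included larger fold changes than any member. Of 18 such genes 15 were tested. In Tβ-MCA 6 were called higher and 1 lower (median log2 fold change 0.23), beside 4.44% and 3.18% of all tested genes. Without replicate 5 the counts were 6 and 3, beside 8.52% and 9.44% of all tested genes. H2-T22, a nonclassical heavy chain recognised by some γδ T cells, was at 42.1, 48.0 and 53.4 CPM in PBS and at 98.4, 101.2 and 62.2 CPM in Tβ-MCA (0.87 ± 0.19, adjusted p = 0.0290). H2-T10, its close relative, was at 4.58 to 5.62 CPM in PBS and 6.45 to 9.07 CPM in Tβ-MCA (0.69 ± 0.16, adjusted p = 0.0240). Cd1d1, which presents lipids to NKT cells, was at 2.911 to 3.498 CPM in PBS and 4.39 to 6.69 CPM in Tβ-MCA (0.79 ± 0.19, adjusted p = 0.0266). In all 3 the groups did not overlap, and replicate 5 was the lowest Tβ-MCA sample. With the replicate number as a block H2-T10 was still called (adjusted p = 0.0402). H2-T22 (adjusted p = 0.0855) and Cd1d1 (adjusted p = 0.0515) were then not called.

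The other 3 that rose were H2-T24 (0.54, adjusted p = 0.0448), H2-T23, which encodes the Qa-1 molecule that binds NKG2A receptors (0.33, adjusted p = 0.0381), and H2-Q7, which encodes Qa-2 (0.30, adjusted p = 0.0377). H2-Q7, whose promoter run is printed above, was at 40.8, 41.7 and 47.3 CPM in PBS and at 52.4, 57.5 and 50.2 CPM in Tβ-MCA. H2-Q10 went the other way, at 75.9, 84.0 and 79.0 CPM in PBS and at 41.4, 54.0 and 64.4 CPM in Tβ-MCA (-0.58 ± 0.12, adjusted p = 0.0235). The lowest log2 fold change of the 15 was -1.16, larger in size than any rise. Without replicate 5, Fcgrt (-1.93, adjusted p = 0.00132) and Hfe (-1.47, adjusted p = 0.0110) were also called lower. With the replicate number as a block Fcgrt was called lower (-0.997, adjusted p = 0.0377) and Hfe was not (adjusted p = 0.397). H2-T10, H2-T22, H2-Q7 and H2-Q10 have close paralogs, and reads could have been split between them. None of the 15 was called in TCA, GCA or GCA against TCA by edgeR; the lowest p values were those of H2-Q10 in TCA (-0.23, unadjusted p = 0.0898), Cd1d1 in GCA (0.44, unadjusted p = 0.0337) and H2-Q7 in GCA against TCA (0.14, unadjusted p = 0.117). An unadjusted p under 0.05 was found for 0, 1 and 0 of the 15. As with the members, no gene of this list was called higher without PBS replicate 3, PBS replicate 5, Tβ-MCA replicate 3 or Tβ-MCA replicate 4, and 1 was without PBS replicate 6.

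**Figure D5:**
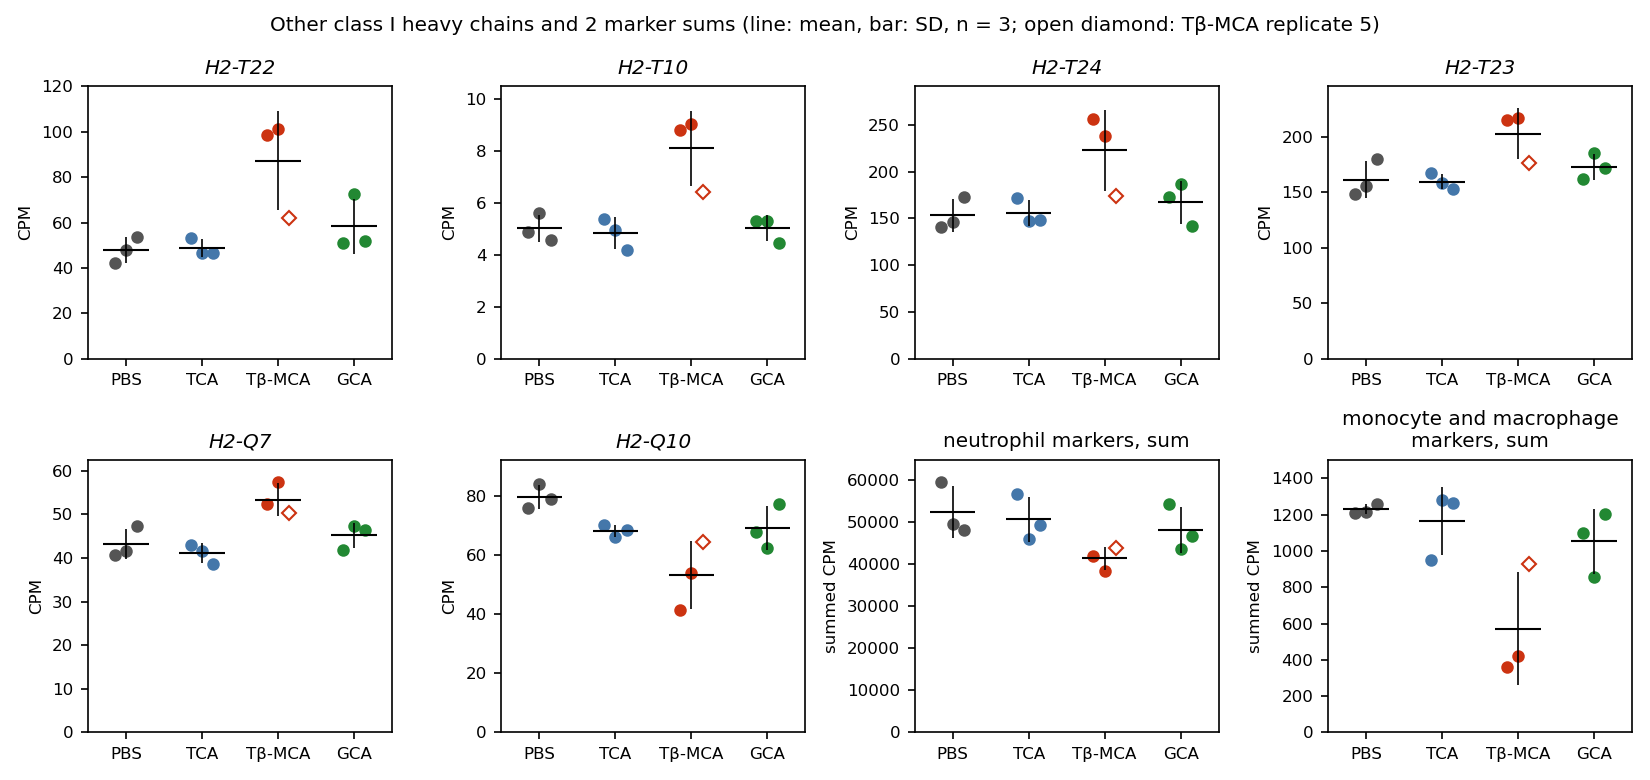
CPM of 6 other class I heavy chain genes and the summed CPM of 13 neutrophil and 15 monocyte and macrophage markers in each sample (axes from 0), with mean lines, SD bars (n = 3) and Tβ-MCA replicate 5 as an open diamond. Tβ-MCA replicates 3 and 4 have the highest H2-T22 (98.4 and 101.2 CPM) and the lowest monocyte marker sums (363 and 421 CPM), and replicate 5 lies between them and PBS.

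Regulators of class I transcription did not pass the test. Of 17 genes 0 were called in Tβ-MCA by edgeR and 1 each by DESeq2 and limma, with a median log2 fold change of -0.0023. Of all genes DESeq2 called 1999 of 16761 and limma 861 of 13951. An unadjusted p under 0.05 by edgeR was found for 6 of the 17, beside 24.9% of all tested genes. Without replicate 5, 3 of the 17 were called higher and 2 lower. Irf8, a myeloid interferon regulatory factor abundant in monocytes and dendritic cells, had the lowest p, at 79.8 to 92.7 CPM in PBS and 38.9, 37.8 and 70.9 CPM in Tβ-MCA (-0.79 ± 0.22, adjusted p = 0.0568). Of 9 interferon receptor and kinase genes 1 was called, the kinase Tyk2, at 49.97 to 56.03 CPM in PBS and 75.6, 63.9 and 60.5 CPM in Tβ-MCA (0.35 ± 0.086, adjusted p = 0.0291). The median of these 9 was 0.017, and without replicate 5 again 1 was called higher and 0 lower (Tyk2 0.41, adjusted p = 0.00410). Of all tested genes 4.44% were called higher and 3.18% lower, and 8.52% and 9.44% without replicate 5.

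Among interferon-induced genes, 2 guanylate-binding proteins and Ifit1 rose. Of 18 listed 16 were tested, and in Tβ-MCA 3 were called higher and 0 lower (beside 4.44% and 3.18% of all genes), while 5 of the 16 log2 fold changes were above 0 and the median was -0.075. DESeq2 called 5 of them and limma 1 of 15, where of all genes they called 1999 of 16761 and 861 of 13951. Without replicate 5, 3 were called higher and 1 lower, beside 8.52% and 9.44% of all tested genes. The lower one was the immunity-related GTPase Irgm1 (-0.51, adjusted p = 0.0260). Gbp5 and Gbp2, guanylate-binding proteins of the interferon-γ response, were at 2.47 to 3.79 and 4.29 to 6.36 CPM in PBS. In Tβ-MCA Gbp5 was at 10.9, 10.5 and 4.92 CPM (1.47 ± 0.38, adjusted p = 0.0416) and Gbp2 at 14.1, 11.5 and 7.92 CPM (1.08 ± 0.24, adjusted p = 0.0253). Ifit1, a type I interferon target, was at 2.97 to 3.91 CPM in PBS and 4.12 to 7.04 CPM in Tβ-MCA (0.74 ± 0.21, adjusted p = 0.0429). In all 3 genes the lowest Tβ-MCA sample was replicate 5. With the replicate number as a block Gbp2 (adjusted p = 0.0303) and Ifit1 (adjusted p = 0.0476) were still called. Gbp5 (adjusted p = 0.103) was then not called.

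With TCA and GCA no gene of these lists was called by edgeR, DESeq2 or limma, and all adjusted p values were 0.9987 or more by edgeR. In TCA the genes with the lowest p of their list were the loading factor Tapbpl (log2 fold change -0.15), Psmb6 of the constitutive subunits (-0.11), Psma1 of the other core subunits (-0.082), the activator Psme4 (0.15), the RFX subunit Rfxank (-0.15), the receptor Ifnar1 (0.11) and the induced chemokine Cxcl10 (0.59). In GCA they were Lnpep (-0.11), Psmb6 (-0.053), Psma1 (-0.079), Psmg4, a proteasome assembly chaperone (-0.34), Irf8 (-0.22), Socs1, an inhibitor of JAK kinases (-0.63), and Gbp3 (-0.23). For GCA against TCA they were Tapbpl (0.14), Psmb6 (0.054), Psma4 (-0.11), the assembly factor Pomp (-0.11), Rfxank (0.15), Socs1 (-0.56) and Gbp2 (0.38). Of these, Psme4 in TCA and Psmg4 and Socs1 in GCA had an unadjusted p under 0.05.

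Over the 12 samples 7 of the members (H2-K1, H2-D1, Tap1, Tap2, Tapbp, Psmb8 and Psmb9) had similar profiles, with r of at least 0.61 in every pair. H2-K1 and H2-D1 had the most similar log2 CPM (Pearson r = 0.97), and Tapbp had r = 0.90 with Psmb8 and 0.89 with Psmb9. B2m had r of 0.65 to 0.71 with Tapbp, Psmb8 and Psmb9 but 0.30 to 0.49 with the transporter subunits and heavy chains, and 0.38 with Psmb10. Nlrc5 had a negative r with each of the other 9 genes, from -0.75 with Psmb8 to -0.14 with Psmb10. These values describe 12 libraries in which the treatment groups and neighbouring genes are shared. Of 8063 other genes with a mean of at least 10 CPM, the 5 whose profile was most like the mean of the 10 members were Tor4a (r = 0.97), Gsn, which encodes the actin-severing protein gelsolin (0.96), Sipa1l1 (0.95), Irs2, an insulin receptor substrate (0.95), and Fam134a (0.95). Gsn was at 234.2 to 240.9 CPM in PBS, 216.2 to 239.6 in TCA, 249.0 to 285.8 in Tβ-MCA and 239.1 to 257.8 in GCA.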

How the data were processed

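Poly(A) RNA-seq libraries of cultured mouse neutrophils (4 groups of 3 samples) were used. The authors trimmed reads (Trimmomatic 0.36), aligned them to GRCm38/mm10 (STAR 2.5.3a) and counted them per gene (featureCounts, Subread 1.5.1), per the labels. The deposited tables hold raw counts and the authors' RPKM per gene; the strand setting and the handling of multi-mapped reads are not given in the sources used here. Counts were tested in R 4.3.3 with edgeR 4.0.16 (robust quasi-likelihood fit, TMM, filterByExpr, all 12 samples in 1 fit, Benjamini-Hochberg over 16761 genes, threshold 0.05). The edgeR step was tested on simulated data. RPKM entered the levels and the subunit ratios (no pseudocount, exact permutation tests). The 95% intervals use a t distribution with 8 degrees of freedom. The edgeR test adds degrees of freedom shared across genes, so the intervals are wider than those of the test. Alternatives were DESeq2 1.42.0, limma 3.58.1 on log2(RPKM + 1) for genes with a mean of at least 0.5 RPKM, total library size, no filter, only the 2 groups compared, a replicate block, the cutoffs of the methods text and leaving out each sample. The members, pathway lists and markers were chosen with earlier results of these data known. Named genes are all members, the called genes of each list (up to 3 per direction with the lowest p; all 6 heavy chain genes that rose are named), otherwise the gene with the lowest p, the constitutive subunits, the defining markers (1 is not reported here) and the 5 genes with the most similar profile. The called markers Siglec1, Mmp9, Camp, Batf3 and Cd79a, and Psma5, Irgm1, Calr, Pdia3, Hspa5, H2-Q6, Fcgrt and Hfe, were named after their values were seen. Replicates of a group differed by more than counting noise in every pair.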

Additional observations from a re-analysis of the deposited data

How the results depend on the processing

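With Tβ-MCA against PBS, 3 members were called higher by DESeq2, limma and with the replicate block, and 4 without the filter on low counts, but 5 when scaled to total library size, 0 in a fit of those 2 groups alone, 0 at the cutoffs of the methods text and 0 to 5 when 1 sample was left out. Of all genes, 745 were higher and 533 lower; these counts were 1009 and 990 by DESeq2, 1013 and 395 with total library size, 1108 and 1298 without the filter, 587 and 274 by limma, 0 and 0 with only the 2 groups (3485 with an unadjusted p under 0.05), 182 and 312 at the cutoffs of the methods text, and 0 to 1459 and 0 to 1617 when 1 sample was left out. Total library size moved the median over all genes to 0.052. The other heavy chain and class I-like genes, for which the same alternatives were chosen after seeing the data, had 6 higher and 1 lower. Higher calls were 4 with the replicate block, 4 by limma and 7 without the filter. They were 0 with only the 2 groups and 0 at the cutoffs of the methods text. Lower calls were 2 by DESeq2, 3 without the filter, 2 with the replicate block, 0 with only the 2 groups and 1 at the cutoffs of the methods text. When 1 sample was left out, 0 to 6 were higher and 0 to 3 lower.

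No member was called with TCA, GCA or GCA against TCA under any alternative. Of all genes, higher and lower calls without the filter were 15 and 22 for TCA, 13 and 23 for GCA and 18 and 24 for GCA against TCA; at the cutoffs of the methods text they were 38 and 40, 36 and 53, and 31 and 43. DESeq2 called 1 gene lower with TCA. The log2 ratio differences stayed within 1 SD of the reported ones under every alternative; leaving out 1 sample, Psmb9/Psmb6 in Tβ-MCA ran from 0.47 to 0.76. The cause of these shifts was not tested. Members at about 10 CPM (Psmb10) and 3 samples per group limit what can be resolved.

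Replicate numbers are shared between groups, but no label says that a number marks an animal or a day. Same-numbered samples of different groups deviated together (mean r = 0.19 over 15 pairs, lowest 0.060) against -0.072 over 39 other pairs, and not every pair was over 0.1. The other pairs reached 0.154 (PBS 6 and TCA 4), so the 2 ranges overlapped. PBS 5 had a higher r with Tβ-MCA 4 (0.117) than with Tβ-MCA 5 (0.060). Deviations from a group mean sum to 0 within the group, so positive r in some pairs goes with negative r in others. For number 3, r ran from 0.20 (Tβ-MCA and GCA) to 0.33 (PBS and TCA). Summed eosinophil markers were 241, 214 and 236 CPM in PBS, TCA and GCA replicate 3, against 112 to 151 in the other samples of these groups. In Tβ-MCA they were 78.4, 54.1 and 123.6 CPM (replicates 3, 4 and 5). What the number-3 samples share was not tested, and the reported fit had no block. The fit with the replicate block called 3 members higher in Tβ-MCA (771 genes higher and 727 lower in all) and, with TCA, 1 gene higher and 2 lower.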
